A study of Homo sapiens with 6 samples.

Results

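The spliceosome is the RNA-protein machine that removes introns from nascent transcripts, and 49 genes for its core subunits and for factors that recognise splice sites were examined here. They were chosen by gene symbol from what their products do, and all 49 were among the 15598 genes of the deposited count table. By role they comprised 4 genes for recognition of the 3′ splice site, 12 for the U2 snRNP and its partners, 10 for the U1 snRNP and its partners, 7 for the Sm ring, 11 for U5 and the tri-snRNP, and 5 for the Prp19 complex and the catalytic steps. The RNA came from MHCC97H, an established line of highly metastatic liver cancer cells, and was sequenced. The knockdown cells, shHNRNPC, carried a short hairpin RNA against HNRNPC and gave 3 libraries (SI_3, SI_3_2 and SI_3_3), and the shcontrol cells carried a control hairpin and gave 3 libraries (NC_3, NC_3_2 and NC_3_3). The labels describe 1 cell line and 1 hairpin against HNRNPC, and do not say whether cells were a pool or a clone, how long the knockdown lasted, or whether libraries came from separate cultures. The p-values below therefore measure only the spread between these libraries, which may be technical.

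An intron is recognised first at its ends. The U1 snRNP pairs with the 5′ splice site, SF1 binds the branch point, and the U2AF heterodimer binds the pyrimidine-rich tract and the 3′ splice site. The U2 snRNP then replaces SF1, the U4/U6.U5 tri-snRNP joins, and the Prp19 complex stabilises the catalytic centre. The product of HNRNPC, hnRNP C, coats nascent nuclear RNA at uridine runs and is known from other human cells to compete with U2AF2 for such runs near cryptic 3′ splice sites. How the transcripts that encode the splicing machinery itself stood after loss of hnRNP C is the question addressed here.

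Because hnRNP C recognises uridine runs, the longest such run in the mature transcript is shown for 6 members. These are the 3 with the largest falls as counted (CDC5L, LUC7L and TIAL1) and the 3 with the largest rises (SNRPE, SNRPG and SF3B3). After the GC and length correction described below, SNRPB fell more than TIAL1, and SNRPD1 and SNRPF rose more than SF3B3. Each line gives 30 bases, 5′ to 3′, of the longest coding transcript in GENCODE 29 (GRCh38), with T for U and the run in capitals.
CDC5L: ttgtacTTTTTTTTTTTTTTTTTTgagatg
LUC7L: gtttttgataTTTTTTTTTccattgtgttt
TIAL1: tttgTTTTTTTTTTTTTTTTTTTTTgcttt
SNRPE: ggatacagtttgTTTTTagatgtcctttgt
SNRPG: ttcatttttcTTTTTTTTTaagaacattaa
SF3B3: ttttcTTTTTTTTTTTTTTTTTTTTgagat
These stretches lie in the 3′ UTR of CDC5L (chr6:44449859-44449888, plus strand), of LUC7L (chr16:189623-189652, minus strand), of TIAL1 (chr10:119574582-119574611, minus strand), of SNRPE (chr1:203869965-203869994, plus strand) and of SF3B3 (chr16:70575192-70575221, plus strand), and in the 5′ UTR of SNRPG (chr2:70293011-70293040, minus strand). Long runs occurred on both sides, with 18 uridines in CDC5L and 21 in TIAL1 among genes that fell, and 20 in SF3B3 and 9 in SNRPG among genes that rose. SNRPB, SNRNP70, PRPF19 and PUF60 had no run of 5 or more. A run of at least 5 was present in 18 of the 21 members that rose and in 15 of the 16 that fell, beside 10458 of all 11831 tested genes (88.4%). The runs describe annotated transcripts, and the isoforms present in MHCC97H were not determined. In the deposited table LUC7L is placed at chr16:189896-227686 and TIAL1 at chr10:119575437-119596510, and the runs shown for both lie outside these positions.

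The knockdown was visible in the target. HNRNPC was at 61.5, 66.4 and 59.0 CPM (reads scaled to library size) in the shHNRNPC libraries, against 847, 855 and 856 CPM in shcontrol, a log2 fold change of -3.77 ± 0.030 (SE), with an adjusted p of 5.04e-55 in edgeR's quasi-likelihood test. Total counts ranged over 16692497 to 17889820 in the shHNRNPC libraries and 15563077 to 18328475 in shcontrol, and no library stood apart. Of the 9 markers of the labelled cell type, 7 were in the table, which lacked TTR and GPC3. ALB, AFP, APOA1 and HNF4A were at or under 0.380 CPM in every library. SERPINA1 was at 0.228 to 0.792 CPM in shHNRNPC and 0.190 to 0.588 CPM in shcontrol. The hepatocyte identity of the line is thus not visible in these genes. The keratins KRT8 (1151 to 1167 CPM in shHNRNPC and 1002 to 1015 CPM in shcontrol) and KRT18 (395 to 412 CPM in shHNRNPC and 356 to 369 CPM in shcontrol) were high. The leukocyte list (2 of 3 genes in the table) summed to 63.3 to 67.3 CPM in shHNRNPC and 40.5 to 47.3 CPM in shcontrol, nearly all of it from CD68, with CD3E at or near 0. The endothelial list (3 of 3) summed to 0.456 to 0.669 CPM in shHNRNPC and 0.588 to 1.40 CPM in shcontrol. The fibroblast list (3 of 3) summed to 19.2 to 20.9 CPM in shHNRNPC and 18.6 to 20.9 CPM in shcontrol, with COL1A2 near 0. The part of CD68-expressing cells in the results was not tested.

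Spliceosome transcripts moved in both directions. As counted the falls were larger than the rises, with a median log2 fold change of -0.50 for the called falls and 0.15 for the called rises, but after the correction for GC content and length described below the medians were -0.25 and 0.29. Among the 47 members that passed the filter on low counts, 21 rose (44.7%) and 16 fell (34.0%) at an adjusted p under 0.05 in edgeR's quasi-likelihood test with Benjamini-Hochberg adjustment over all tested genes. Of all 11831 genes tested, 29.8% were higher and 31.3% lower, 61.1% either way, so that a call in itself was common in this comparison. The rises were 1.06-fold to 1.27-fold and the falls 1.12-fold to 1.80-fold. A rise of at least 1.2-fold was seen for 4 of 47 (SNRPE, SNRPG, SF3B3 and SNRPD2), against 15.8% of all tested genes, and a fall of that size for 13 of 47, against 22.8%. No member rose by 1.5-fold and 5 fell by that much, where the shares of all tested genes were 4.90% and 9.12%. Tested against a minimum of 1.5-fold with edgeR's glmTreat, 0 members were higher and 3 lower, beside 1.83% and 3.30% of all tested genes. The median log2 fold change was 0.05 over the members and -0.004 over all tested genes. In 39 of the 47 tested members (83.0%) the 3 shHNRNPC values did not overlap the 3 shcontrol values, beside 64.0% of all tested genes. The members were not matched to other genes by read count, and the part of abundance in these shares was not tested. The authors' deposited table gave 21 members higher and 16 lower at its own adjusted p, with the same call for all 47.

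**Figure D1:**
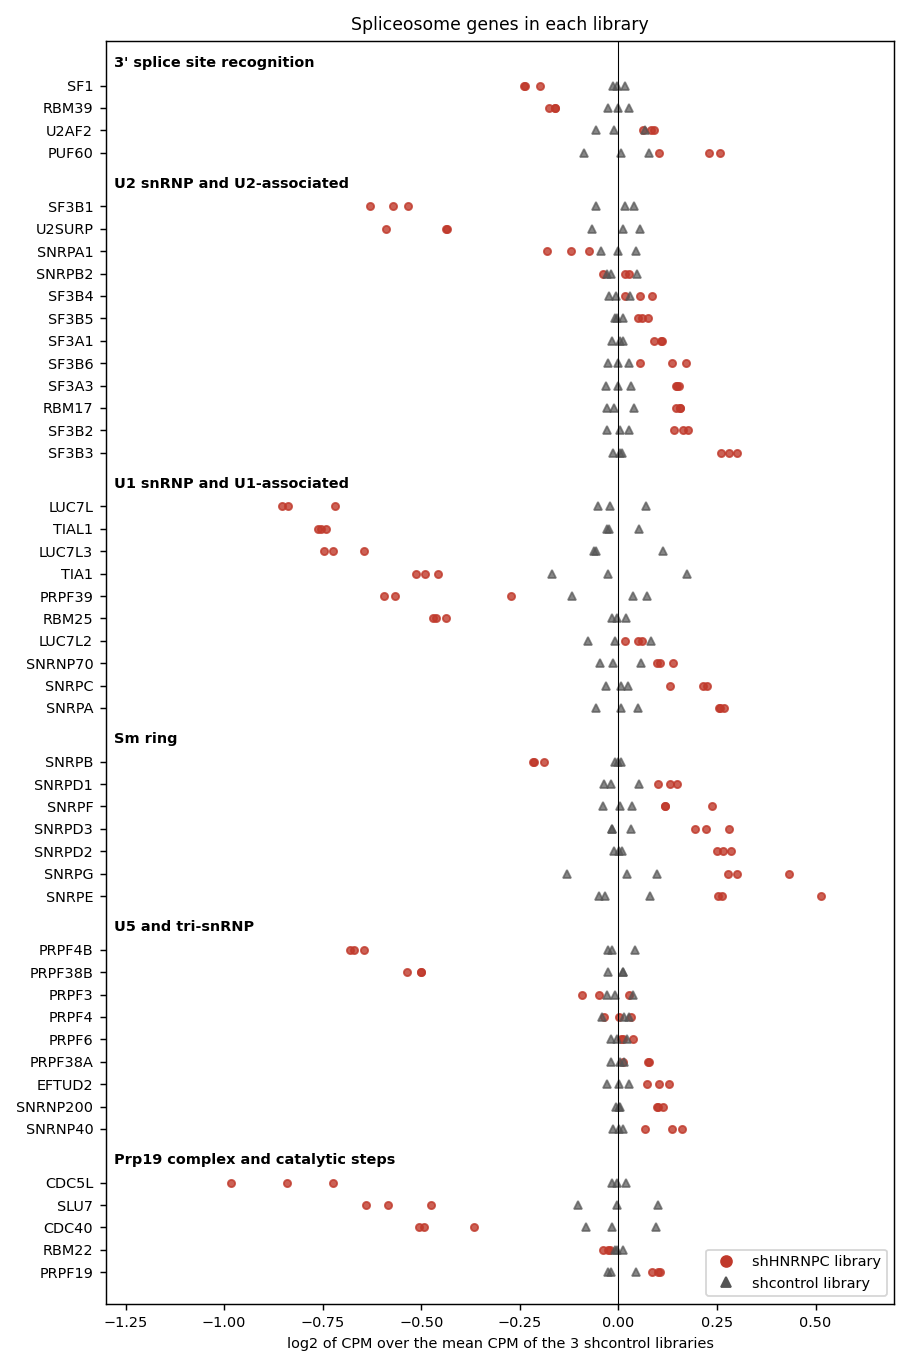
Level of each tested member in each library, as log2 of its CPM over the mean CPM of the 3 shcontrol libraries, grouped by role; red circles are shHNRNPC libraries and grey triangles shcontrol libraries. The Sm ring lies to the right except SNRPB, while the largest displacements, for CDC5L, LUC7L, TIAL1 and LUC7L3, lie to the left.

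Over the whole transcriptome, AT-rich and long transcripts tended to be lower in shHNRNPC, so each member is also given after a correction that fits the dependence of each library's counts on transcript GC content and length. With it 13 members were higher and 20 lower, beside 26.1% and 30.2% of all tested genes. Of the 37 calls, 21 were kept, 13 lost and 3 turned round (U2AF2, SNRNP70 and PRPF19), and 9 genes gained a call. Where a member's call or direction depended on the correction, its corrected value stands with its role. Since each library was fitted on its own, a group difference that follows GC content or length is taken out whatever its source. Over all tested genes, Spearman's rho between log2 fold change and GC content went from 0.43 to -0.02. For length it went from -0.32 to 0.005. Whether the part taken out was technical or an effect of the knockdown was not tested. Corrected values are therefore not taken as truer than counted ones.

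At the 3′ splice site, the branch point protein fell and the tract-binding subunit that hnRNP C competes with barely moved. SF1, which binds the branch point in the earliest complex, was at 396, 396 and 406 CPM in shHNRNPC, against 466, 462 and 472 CPM in shcontrol. All shHNRNPC values lay below all shcontrol values, and SF1 fell by 0.22 ± 0.023 (SE) on the log2 scale (edgeR adjusted p = 9.09e-12), or by 0.34 after the correction (edgeR adjusted p = 1.43e-21). The U2AF2 gene, for the large U2AF subunit, had 699, 713 and 709 CPM in shHNRNPC and 701, 643 and 664 CPM in shcontrol. Those groups overlapped, since the shcontrol library NC_3 lay above the lowest shHNRNPC library. The U2AF2 log2 fold change was 0.08 ± 0.023 (SE, edgeR adjusted p = 3.03e-03) as counted and -0.07 (edgeR adjusted p = 2.40e-03) after the correction, and the call was lost without NC_3_2 (edgeR adjusted p = 0.0671) and with library size alone as the scaling (edgeR adjusted p = 0.140).

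PUF60, a U2AF2-related protein that helps recruit U2, was at 75.6, 74.2 and 68.0 CPM in shHNRNPC and 63.6, 66.8 and 59.5 CPM in shcontrol. Its groups did not overlap as counted (log2 fold change 0.20 ± 0.048 SE, edgeR adjusted p = 3.35e-04), but the difference was 0.02 after the correction (edgeR adjusted p = 0.767). RBM39, another U2AF2 relative, was at 141, 139.8 and 141 CPM in shHNRNPC and 158, 161 and 155 CPM in shcontrol. It fell by 0.17 ± 0.032 (SE) on the log2 scale (edgeR adjusted p = 1.26e-05), and by 0.05 with no call after the correction (edgeR adjusted p = 0.124). The small U2AF subunit, U2AF1, is not a member and could not be followed. Its symbol had a mean of 0.637 CPM in shHNRNPC and 0.663 CPM in shcontrol, and its near-identical copy U2AF1L5 had 0.926 CPM in shHNRNPC and 1.16 CPM in shcontrol, which are not taken as its level.

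In the U2 snRNP and its partners, 6 of 12 genes rose, 2 fell and 4 did not pass, with a median log2 fold change of 0.08. After the correction 6 were higher and 4 lower, with a median of 0.06. SF3B1, the SF3b scaffold that holds the branch helix, was at 164, 160.0 and 154 CPM in shHNRNPC, against 228, 244 and 241 CPM in shcontrol. Every shHNRNPC value was well below every shcontrol value, and SF3B1 fell by 0.58 ± 0.031 (SE) on the log2 scale (edgeR adjusted p = 4.86e-21). The fall was 0.26 after the correction (edgeR adjusted p = 1.95e-12), and was therefore smaller but still called. U2SURP, an SR-related partner of U2, was at 64.6, 72.0 and 71.9 CPM in shHNRNPC and 92.8, 101 and 98.0 CPM in shcontrol. Its groups were clearly separate as counted (log2 fold change -0.48 ± 0.044 SE, edgeR adjusted p = 3.29e-13), yet the corrected difference was -0.03 (edgeR adjusted p = 0.538).

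Among the other SF3b subunits, SF3B3 and SF3B6 were called higher both as counted and after the correction. SF3B3, the WD40-rich partner of SF3B1 in the SF3b core, was at 548, 541 and 533 CPM in shHNRNPC and 441, 448 and 446 CPM in shcontrol. The groups were far apart for their spread, and SF3B3 rose by 0.28 ± 0.022 (SE) on the log2 scale (edgeR adjusted p = 4.26e-15) and by 0.37 after the correction (edgeR adjusted p = 7.63e-24). SF3B2 had 547, 552 and 538 CPM in shHNRNPC and 478, 497 and 489 CPM in shcontrol, without overlap. Its log2 fold change was 0.16 ± 0.022 (SE, edgeR adjusted p = 2.95e-08), or 0.04 and no longer called after the correction (edgeR adjusted p = 0.150). RBM17, a U2-associated protein known for alternative 3′ splice site choice, was at 63.7, 63.7 and 63.2 CPM in shHNRNPC and 56.0, 56.7 and 58.8 CPM in shcontrol. This small rise (log2 fold change 0.15 ± 0.046 SE, edgeR adjusted p = 3.96e-03) was larger, at 0.29, after the correction. SF3A1, SF3A3 and SF3B6 rose by 1.07-fold, 1.11-fold and 1.09-fold and kept their calls under the correction. The call of SF3B6 was lost without SI_3_2 (edgeR adjusted p = 0.0549) and with library size alone (edgeR adjusted p = 0.0582). SF3B4, SF3B5, SNRPA1 and SNRPB2 had no call as counted, with log2 fold changes of 0.05, 0.06, -0.13 and 0.003. All 4 had a call after the correction, at -0.12 for SF3B4 (edgeR adjusted p = 1.04e-04), -0.20 for SF3B5 (3.10e-08), -0.24 for SNRPA1 (2.37e-04) and 0.26 for SNRPB2 (6.36e-08).

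Among the 10 genes of U1 and its partners, the 3 that rose as counted encode the proteins of the particle itself, 6 partners fell and 1 did not pass. Their median log2 fold change was -0.46 as counted and -0.11 after the correction, when 1 gene was higher, 4 were lower and 5 had no call. LUC7L and LUC7L3 are human relatives of the yeast U1 protein Luc7, which steadies U1 on the 5′ splice site. LUC7L (chr16:189896-227686 in the deposited table, minus strand) was at 25.9, 26.2 and 28.5 CPM in shHNRNPC, against 46.2, 45.2 and 49.1 CPM in shcontrol. That fall was 1.74-fold (log2 fold change -0.80 ± 0.060 SE, edgeR adjusted p = 9.17e-16), and it was larger after the correction, at -0.97 (edgeR adjusted p = 1.23e-22). LUC7L3 was at 30.4, 28.8 and 28.3 CPM in shHNRNPC and 45.6, 51.3 and 45.5 CPM in shcontrol. Its groups were well apart (log2 fold change -0.70 ± 0.060 SE, edgeR adjusted p = 5.91e-14), with a corrected fall of 0.28 (edgeR adjusted p = 3.17e-05). LUC7L2, the other relative, did not pass (log2 fold change 0.04, edgeR adjusted p = 0.509). Its exons and those of LUC7L3 overlap exons of annotated same-strand neighbours, so reads could be split between neighbouring genes.

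TIA1 and TIAL1 bind uridine-rich sequence downstream of 5′ splice sites and help U1 bind there. TIAL1 was at 48.8, 49.1 and 49.4 CPM in shHNRNPC, against 81.3, 85.8 and 81.1 CPM in shcontrol. The shHNRNPC libraries were nearly identical, and TIAL1 fell by 0.75 ± 0.045 (SE) on the log2 scale (edgeR adjusted p = 4.44e-19) and by 0.42 after the correction (edgeR adjusted p = 2.08e-12). TIA1 was at 11.4, 11.7 and 11.3 CPM in shHNRNPC and 14.3, 15.8 and 18.1 CPM in shcontrol. The groups did not overlap (log2 fold change -0.49 ± 0.096 SE, edgeR adjusted p = 2.17e-05), but no call remained after the correction (-0.11, edgeR adjusted p = 0.318). PRPF39, whose yeast relative is a U1 subunit, was the least abundant tested member per transcript length, at 5.66, 7.07 and 5.77 CPM in shHNRNPC and 7.88, 8.99 and 8.77 CPM in shcontrol. It fell by 0.47 ± 0.127 (SE) on the log2 scale (edgeR adjusted p = 1.38e-03), with -0.18 and no call after the correction (edgeR adjusted p = 0.229). RBM25, a U1-associated regulator of 5′ splice site choice, fell 1.37-fold (edgeR adjusted p = 1.11e-12), with -0.07 and no call after the correction (edgeR adjusted p = 0.159).

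For the genes of the 3 proteins specific to the U1 particle, the values as counted and after the correction differed. SNRPA rose by 0.26 on the log2 scale (edgeR adjusted p = 4.94e-10), with 0.07 at the edge of the threshold after the correction (edgeR adjusted p = 0.0465). SNRPC was 1.14-fold higher as counted (edgeR adjusted p = 8.62e-07) and at 0.0004 on the log2 scale after the correction. SNRNP70 was 1.08-fold higher as counted (edgeR adjusted p = 6.69e-05) and lower after the correction, at -0.10 on the log2 scale (edgeR adjusted p = 4.57e-05). SNRPC has 18 named pseudogenes in the annotation, which can share its reads.

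The Sm ring is the ring of 7 proteins that the U1, U2, U4 and U5 snRNPs carry, and 6 of its 7 genes rose as counted. The median log2 fold change of these 7 was 0.23 as counted and 0.41 after the correction. With the correction fewer genes were called higher, with 4 higher, 1 lower and 2 without a call. SNRPE was at 15.6, 15.7 and 18.7 CPM in shHNRNPC, against 12.6, 12.8 and 13.8 CPM in shcontrol. SNRPG was at 29.8, 30.2 and 33.2 CPM in shHNRNPC and 26.3, 24.9 and 22.4 CPM in shcontrol. Both were higher in every shHNRNPC library, with log2 fold changes of 0.35 ± 0.092 (SE, edgeR adjusted p = 1.12e-03) for SNRPE and 0.34 ± 0.070 (SE, edgeR adjusted p = 4.19e-05) for SNRPG. After the correction the rises were 0.50 for SNRPE and 0.49 for SNRPG. The annotation lists 9 named pseudogenes of SNRPE and 20 of SNRPG, so their counts are uncertain.

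SNRPD2, the most abundant member per transcript length, was at 1333, 1351 and 1318 CPM in shHNRNPC, against 1116, 1111 and 1099 CPM in shcontrol. SNRPD3 was at 159, 166 and 156 CPM in shHNRNPC and 135, 135 and 139 CPM in shcontrol. Neither pair of groups overlapped, and both genes were called higher (log2 fold changes 0.27 ± 0.019 and 0.23 ± 0.033 SE, edgeR adjusted p = 7.05e-17 and 3.81e-08). The correction brought SNRPD2 to 0.03 (edgeR adjusted p = 0.122) and SNRPD3 to 0.07 (edgeR adjusted p = 0.0517), without a call. SNRPD1 and SNRPF rose 1.09-fold and 1.12-fold, and the corrected log2 fold change was 0.41 for each. For SNRPD1 the correction used a transcript of 4909 bases, of which 357 are coding. With library size alone SNRPD1 lost its call (edgeR adjusted p = 0.0669).

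SNRPB, which encodes SmB and SmB′ and is known to control its own splicing through an exon that leads to decay, was the exception. It was at 506, 507 and 516 CPM in shHNRNPC, against 591, 588 and 584 CPM in shcontrol. The 2 sets of values were tight and far apart, and SNRPB fell by 0.21 ± 0.021 (SE) on the log2 scale (edgeR adjusted p = 1.82e-11). After the correction the fall was 0.43 (edgeR adjusted p = 1.99e-27). Gene-level counts do not tell its isoforms apart.

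Of the 9 tested genes of U5 and the tri-snRNP, 3 rose, 2 fell and 4 did not pass as counted, while 2 were higher and 5 lower after the correction. Their median log2 fold change was 0.02 as counted but -0.02 with library size alone and -0.08 after the correction. PRPF4B, a kinase that phosphorylates tri-snRNP proteins, was at 31.5, 31.3 and 32.0 CPM in shHNRNPC, against 49.6, 49.2 and 51.5 CPM in shcontrol. PRPF38B was at 26.5, 25.9 and 26.5 CPM in shHNRNPC and 37.9, 36.9 and 37.9 CPM in shcontrol. Both were lower in every shHNRNPC library, PRPF4B by 0.67 ± 0.056 (SE, edgeR adjusted p = 2.39e-14) and PRPF38B by 0.51 ± 0.062 (SE, edgeR adjusted p = 8.81e-10) on the log2 scale. The corrected falls were 0.36 for PRPF4B and 0.33 for PRPF38B, and both kept their calls.

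SNRNP200, the helicase that unwinds U4 from U6, was at 919, 908 and 910.2 CPM in shHNRNPC and 849.7, 852 and 846 CPM in shcontrol. EFTUD2, the GTPase of U5, was at 393, 378 and 386 CPM in shHNRNPC and 352, 366 and 359.8 CPM in shcontrol. SNRNP40, a WD40 protein of U5, was at 95.7, 100.2 and 102 CPM in shHNRNPC and 90.4, 91.4 and 92.0 CPM in shcontrol. These are separations without overlap but of small size, 1.07-fold for SNRNP200 and EFTUD2 and 1.09-fold for SNRNP40. The SNRNP200 call was kept after the correction, while EFTUD2 was at 0.05 (edgeR adjusted p = 0.0700) and SNRNP40 at 0.04 (edgeR adjusted p = 0.423), and the call of SNRNP40 was also lost with library size alone (edgeR adjusted p = 0.0604). PRPF6, PRPF3, PRPF4 and PRPF38A did not pass, with log2 fold changes of 0.02, -0.04, -0.0007 and 0.05 as counted. All 4 had a call after the correction, at -0.12 for PRPF6 (edgeR adjusted p = 2.53e-05), -0.14 for PRPF3 (3.18e-03), -0.08 for PRPF4 (0.0177) and 0.37 for PRPF38A (1.13e-13). PRPF8, the scaffold of the catalytic centre, and PRPF31, a tri-snRNP protein, did not pass the filter. PRPF8 had 0, 0 and 2 reads in SI_3, SI_3_2 and SI_3_3 and 3, 1 and 0 in NC_3, NC_3_2 and NC_3_3, and PRPF31 had 3, 4 and 3 reads in shHNRNPC and 11, 6 and 7 in shcontrol. Every spliceosome needs PRPF8, so these counts are not taken as expression levels, and their cause was not tested.

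In the Prp19 complex and the catalytic steps, 3 of 5 genes fell, 1 rose and 1 did not pass, with a median of -0.45 on the log2 scale. After the correction 0 were higher and 4 lower, with a median of -0.16. CDC5L (chr6:44387525-44450426 in the deposited table, plus strand), a core subunit of the complex, was at 21.8, 20.1 and 18.2 CPM in shHNRNPC, against 35.6, 36.5 and 35.9 CPM in shcontrol. It had the largest change of the tested members as counted, 1.80-fold lower (log2 fold change -0.85 ± 0.069 SE, edgeR adjusted p = 1.43e-14). The corrected fall was 0.47 (edgeR adjusted p = 2.49e-08), smaller than that of LUC7L. SLU7, a factor of 3′ splice site choice in the second step, was at 39.6, 35.3 and 36.7 CPM in shHNRNPC and 51.3, 54.9 and 59.0 CPM in shcontrol. The values were apart in every library (log2 fold change -0.57 ± 0.057 SE, edgeR adjusted p = 6.08e-12), and 0.36 of the fall on the log2 scale was left after the correction (edgeR adjusted p = 5.80e-08).

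CDC40, another second-step factor, was at 15.9, 17.4 and 15.8 CPM in shHNRNPC, against 21.2, 22.2 and 23.9 CPM in shcontrol. Its fall of 0.45 ± 0.080 (SE) on the log2 scale (edgeR adjusted p = 3.83e-06) was 0.16 and not called after the correction (edgeR adjusted p = 0.0716). PRPF19, the ubiquitin ligase that names the complex, was at 508, 514 and 516 CPM in shHNRNPC and 494, 469.9 and 473 CPM in shcontrol. The groups did not overlap, but the direction depended on the correction, with a log2 fold change of 0.10 ± 0.023 (SE, edgeR adjusted p = 2.44e-04) before it and -0.07 (edgeR adjusted p = 3.33e-03) after it. RBM22 did not pass as counted (log2 fold change -0.03, edgeR adjusted p = 0.494) and was at -0.08 after the correction (edgeR adjusted p = 0.0422).

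**Figure D2:**
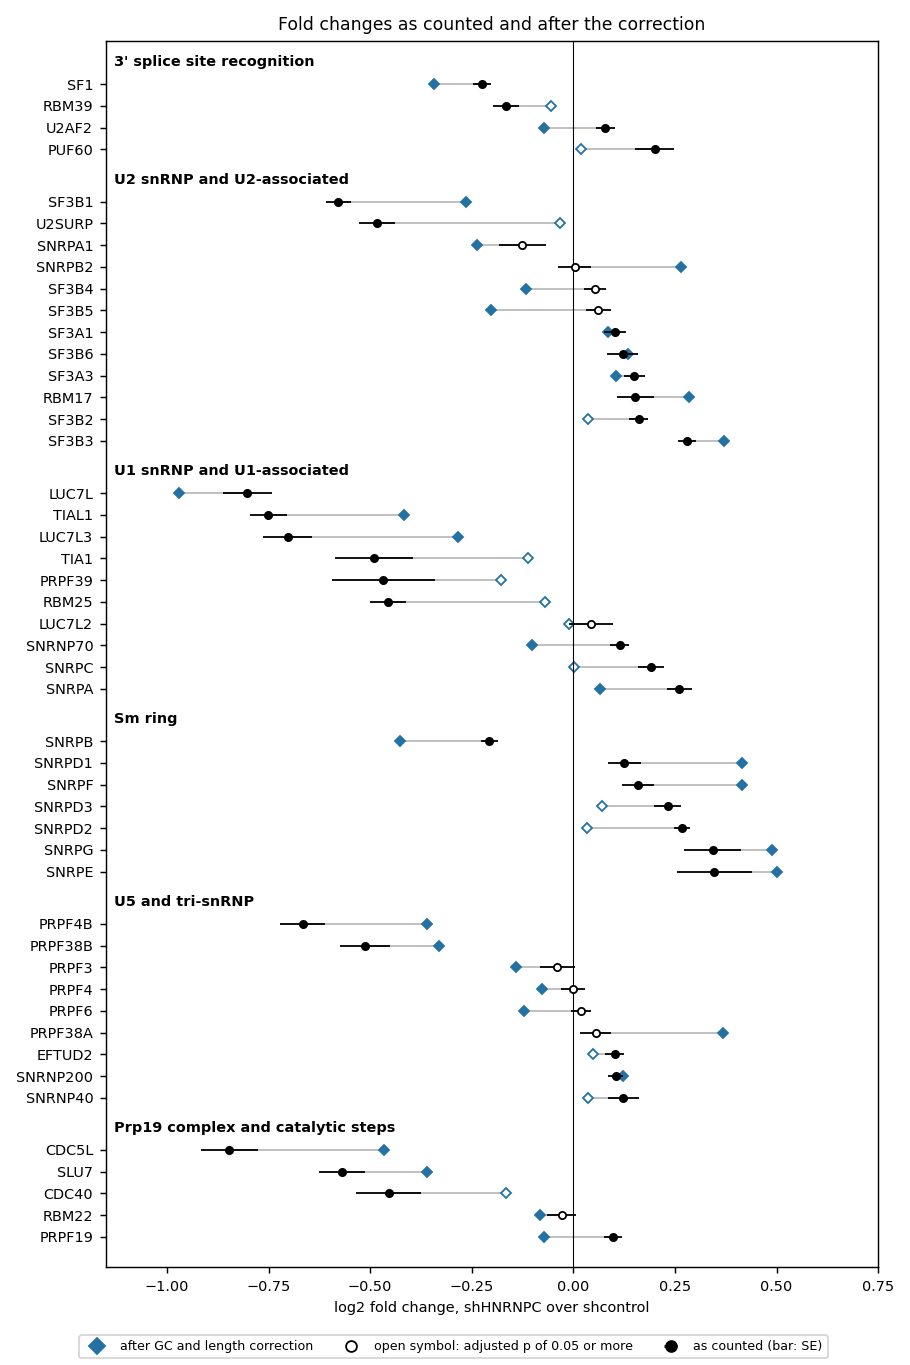
Log2 fold change of each tested member, shHNRNPC over shcontrol, grouped by role; black circles with SE bars are values as counted, blue diamonds values after the GC and length correction, and open symbols have an adjusted p of 0.05 or more. SF1, LUC7L and SNRPB move further down with the correction, SNRPE, SNRPG and SF3B3 further up, and U2SURP and RBM25 move close to 0.

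Transcript composition and length went with the direction of change. The 16 members that fell had a median transcript length of 4174 bases and a median GC content of 39.3%, and the 21 that rose had 2157 bases and 50.9%. Over all tested genes the medians were 42.7% GC for those that fell and 53.8% for those that rose. The median 3′ UTR was 1940.5 bases in members that fell and 621 bases in members that rose. Spearman's rho between the log2 fold change and the feature over the 47 tested members was -0.44 for length, 0.37 for GC content and -0.45 for 3′ UTR length. Across all 11831 tested genes the same values were -0.32, 0.43 and -0.25. Uridine runs of 5 or more, per kilobase of transcript, had a rho of -0.23 over the members and -0.32 over all tested genes. With fold changes after the GC and length correction, the rho for these runs was 0.08 over the members and 0.04 over all tested genes. For 3′ UTR length the corrected rho was -0.05 over the members and 0.08 over all tested genes. These are descriptions across genes, which share the same 6 libraries, and the features are correlated with each other.

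Some members departed from the direction common at their GC content, as some of all tested genes did. At 50% GC or more, the share of members that fell was close to that of all tested genes. Of the 17 members under 42% GC, 11 fell (64.7%, beside 58.6% of the 2883 tested genes of that class), and the 4 that rose were the Sm genes SNRPD1, SNRPE, SNRPF and SNRPG, 23.5% beside 9.99% of that class. Of the 18 members at 50% GC or more, 12 rose (66.7%, beside 42.7% of that class), and the 3 that fell were SF1, LUC7L and SNRPB (16.7% beside 15.3%). In the class between them, 5 of 12 members rose (41.7%) and 2 fell (16.7%). Of the 3565 tested genes of that class, 26.1% rose and 33.5% fell. The class limits of 42% and 50% were set after the data had been seen, and the counts in them are given as description.

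**Figure D3:**
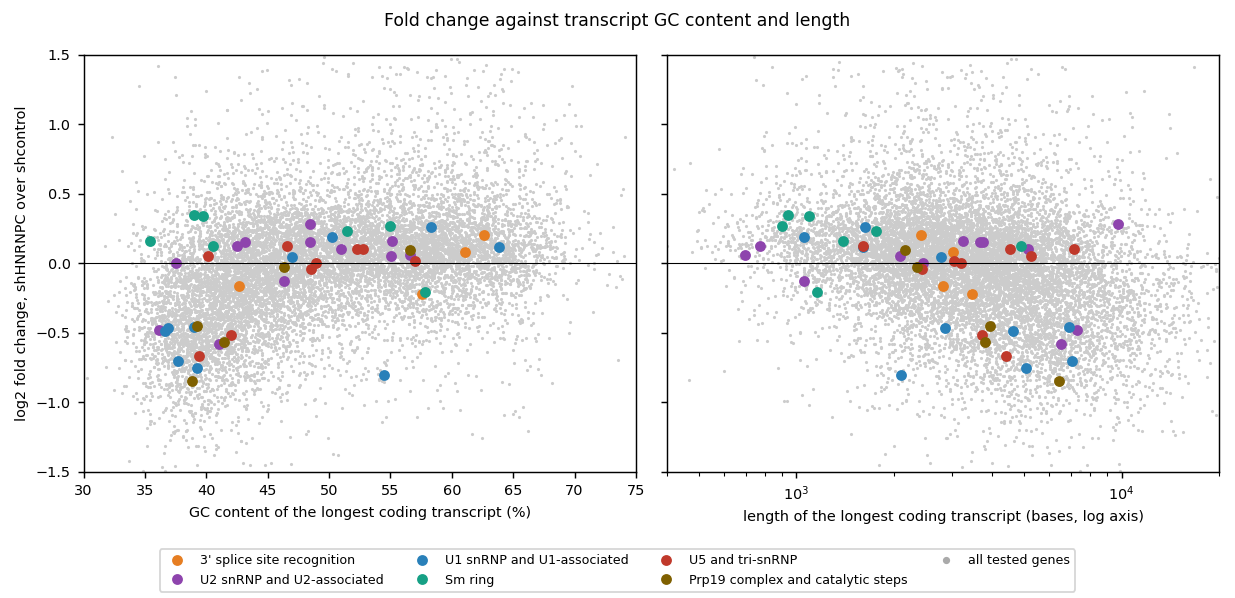
Log2 fold change, shHNRNPC over shcontrol, against GC content (left) and length on a log axis (right) of the longest coding transcript; grey points are all tested genes and coloured points the 47 tested members by role, and genes beyond the axis limits are not drawn. Members at low GC content lie mostly below 0, with the Sm genes above it, and LUC7L lies below 0 at high GC content.

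Levels were compared between genes as CPM per kilobase of the longest coding transcript. SNRPD2 was highest, with means of 1481 in shHNRNPC and 1230.4 in shcontrol, and SNRPB was second, with means of 441 in shHNRNPC and 509 in shcontrol. The order of the 7 highest, SNRPD2, SNRPB, SNRNP70, SF3B5, PRPF19, U2AF2 and SNRPC, was the same in both groups. PRPF19 and U2AF2 were neighbours in this order and did not differ beyond their spread in shcontrol, at 222 ± 6.02 for PRPF19 and 221 ± 9.64 for U2AF2 (SD, n = 3 each). The 7 Sm proteins occur in equal numbers in the ring. On this per-kilobase scale their genes spanned 17.7 for SNRPE to 1481 for SNRPD2 in shHNRNPC, and 13.9 to 1230.4 in shcontrol. SNRPE has 9 named pseudogenes and SNRPG 20, so their counts are uncertain. SNRPD1 was divided by a transcript of 4909 bases, of which 357 are coding. This span is therefore not taken as the span of Sm mRNA levels. SF1 ranked 13 among the 49 members in shHNRNPC and 9 in shcontrol, and SF3B1 ranked 30 in shHNRNPC and 26 in shcontrol. The lowest tested members were PRPF39 (2.15 in shHNRNPC and 2.98 in shcontrol), TIA1 (2.47 in shHNRNPC and 3.46 in shcontrol) and CDC5L (3.12 in shHNRNPC and 5.60 in shcontrol).

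**Figure D4:**
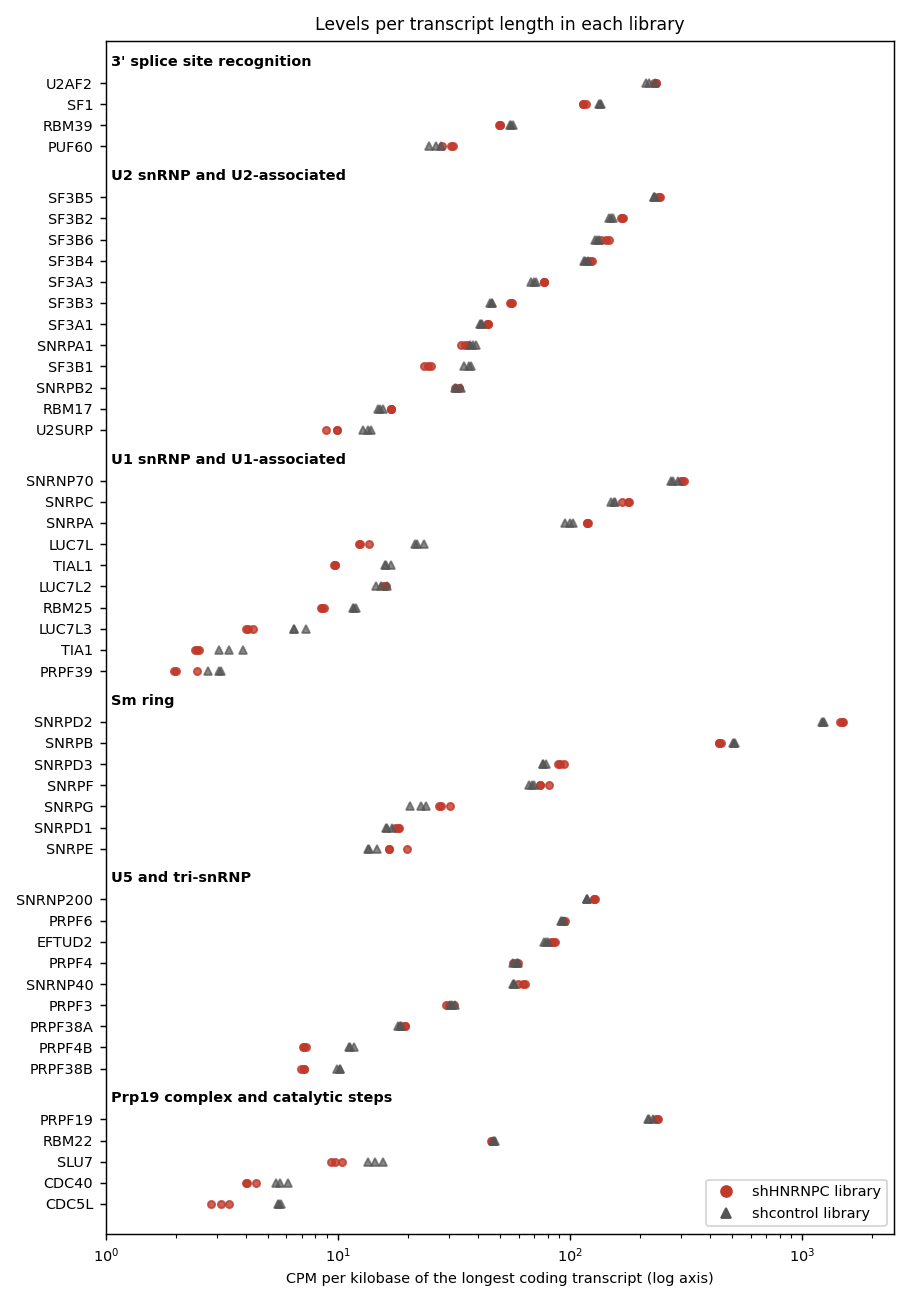
CPM per kilobase of the longest coding transcript for each tested member in each library, on a log axis, grouped by role and ordered by level; red circles are shHNRNPC libraries and grey triangles shcontrol libraries. Within the Sm ring SNRPD2 and SNRPB stand far above SNRPE and SNRPD1, and the spread between libraries of a group is small beside the spread between genes.

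Other genes of the pathway also moved in both directions. In a list of 98 other spliceosome genes, 94 were in the table and 93 were tested, of which 30 rose (32.3%), 32 fell (34.4%) and 31 did not pass in edgeR's quasi-likelihood test, beside 29.8% higher and 31.3% lower of all tested genes. The median log2 fold change of the list was 0.01. After the correction 23 were higher and 38 lower. The LSM ring, the relative of the Sm ring that U6 carries, had 4 of 6 tested genes higher and 0 lower, with LSM6 at 35.7 ± 1.55 CPM in shHNRNPC and 27.4 ± 0.756 CPM in shcontrol (SD, n = 3 each, log2 fold change 0.38, edgeR adjusted p = 1.14e-06). After the correction 4 LSM genes were higher and 1, which had been called higher as counted, was lower. Rises were also seen in PPIH, a cyclophilin of the tri-snRNP (1.26-fold), in GEMIN7 and GEMIN6 of the SMN complex, which loads Sm rings onto snRNA (1.24-fold and 1.23-fold), and in ZMAT2 (1.23-fold).

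The largest falls of that list exceeded those of the members. SNRNP48, a protein of the minor U11/U12 particle, was at 6.13 ± 0.337 CPM in shHNRNPC and 14.5 ± 0.735 CPM in shcontrol (SD, n = 3 each), a 2.37-fold fall with an edgeR adjusted p of 9.86e-14. ECD, which is known to bind PRPF8, was at 17.6 ± 0.801 CPM in shHNRNPC and 40.5 ± 1.44 CPM in shcontrol (SD, n = 3 each), a 2.30-fold fall with an edgeR adjusted p of 3.85e-20. DEK fell 1.68-fold, CWC22, which recruits an exon junction complex helicase to the spliceosome, 1.66-fold, and ISY1 1.62-fold. Each gene named from that list kept its call after the correction.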

How the data were processed

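RNA was extracted with Trizol and libraries were made from total RNA with the NEBNext Ultra kit, per the labels' protocols. STAR, HTSeq 0.6.0 and DESeq2 are named in the submitters' processing notes. For the genome build and for strand-specific counting, the authors' choice is not given in the sources used here. Counts deposited by the authors are whole reads per gene and library. The log2 fold changes and p-values deposited by the authors were used to compare calls, and 24 further per-library columns were not used. Columns were assigned to groups by their names, NC and SI, and carry no replicate number. The design text calls the experiment a microarray, whereas the deposited values are read counts.

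Counts were fitted in R 4.3.3 with edgeR 4.0.16 (filterByExpr, TMM, glmQLFit, glmQLFTest), with Benjamini-Hochberg adjustment over 11831 genes and a threshold of 0.05. CPM are TMM-scaled. Standard errors are the fold change over the root of the F statistic. The correction added offsets from natural splines (5 degrees of freedom each) of GC content and log10 length of the longest coding GENCODE 29 transcript, fitted per library. Other alternatives were RLE, upper quartile and library size scaling, no filter, DESeq2 1.42.0, glmTreat against 1.5-fold, leaving out each library and, chosen after seeing the data, a block on the column suffix. The fits were run on simulated counts that had no GC or length trend between libraries. That run cannot show whether the correction separates composition from the knockdown. Pairs of libraries differed by a chi-square per gene of 1.56 to 2.50 in 1 group and 29.5 to 33.6 across groups, so no pair of libraries was counted as the same library.

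Values per library are given for HNRNPC, U2AF2, SF1 and up to 5 called members with the largest change in each role. Of the other spliceosome genes, the 6 called genes with the largest change in each direction and a mean of at least 5 CPM were taken, of which 2 are not reported here, and DDX39B, LSM2, CWC25 and DHX16 were not analysed here. Uridine runs were searched in mature transcripts as a motif of 5 or more T on the sense strand, and introns were not used here. Positions in the deposited table overlap the GENCODE 29 gene (GRCh38) for 49 of 49 members. The annotation has named pseudogenes for 11 members and exons of an opposite-strand gene over 15. Exons of a same-strand gene overlap 6 members: U2SURP, LUC7L2, LUC7L3, TIA1, SNRPB and SNRPD3. Reads of all these members may be mixed. The members and lists were chosen with earlier results of these data known.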

Additional observations from a re-analysis of the deposited data

How the results depend on the processing

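Of the 37 member calls, 33 were kept under every scaling, 35 in every fit without a library and 37 with DESeq2, and 19 were kept in all of these and after the GC and length correction. The correction gave 13 members higher and a median log2 fold change of -0.070, and it reversed U2AF2 (-0.073), SF3B4 (-0.12), SF3B5 (-0.20), SNRNP70 (-0.10), LUC7L2 (-0.012), PRPF6 (-0.12) and PRPF19 (-0.073) on the log2 scale. The transcripts that set GC content and length were not matched to those expressed, and any part of composition in the changes was not separated further. Against a 1.5-fold minimum, glmTreat called 0 members higher and 3 lower, and 0 other spliceosome genes higher and 4 lower, beside 1.83% and 3.30% of all tested genes. Genes near 0 changed sign without a call: PRPF4 (0.0056 with RLE, 0.014 with upper quartile, 0.0030 without a filter and 0.0030 with DESeq2), SNRPB2 (-0.037) and PRPF6 (-0.021) with library size alone. Without 1 library, PRPF4 ranged over -0.024 to 0.017, SNRPB2 over -0.015 to 0.025, members higher 20 to 21, members lower 16 to 17, and HNRNPC -3.82 to -3.74. SNRPA1 gained a call without SI_3, without NC_3 and with library size alone, SF3B4 without SI_3_2 and with upper quartile, and SF3B5 with upper quartile. The column suffixes match across groups but are not the replicate numbers of the sample titles. Deviations of libraries with the same suffix correlated at -0.043 to 0.0084. Whether such libraries shared a culture or a run is not given by the labels, and these correlations cannot settle it. A fit with the suffix as a replicate block, chosen after seeing the data, gave 21 members higher and 16 lower and changed no member's call. PRPF8 and PRPF31 had too few reads to test.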
